A study of Mus musculus with 15 samples.

Results

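Chromatin accessibility was examined at the genes of vesicle trafficking and of the vacuolar proton pump in mouse pancreatic islets, before and after partial pancreatectomy (PPx), the surgical removal of part of the pancreas. The genes were chosen by the start of their symbol in the authors' peak annotation, a rule that reads no measured value. They comprise the Rab genes, the Vps, sorting nexin (Snx) and Sec genes, the SNARE genes of the syntaxin (Stx) and Vamp families, the synaptotagmins (Syt), the TRAPP subunits (Trappc), the subunits of the adaptor complexes AP-1, AP-2 and AP-3, and the V-ATPase subunits (Atp6v). The names match 142 of the 10268 genes with a listed peak in any comparison, and no peak of a Copb gene was listed. Counting each position once, they hold 172 of 13111 peaks in βKO against control islets after PPx and 107 of 7826 peaks in the same comparison before PPx. They hold 169 of 12767 peaks in βKO islets after against before PPx, and 104 of 8070 peaks in control islets after against before PPx. The peaks form 181 regions, of which 91 were listed in all 4 comparisons, 22 in 3, 57 in 2 and 11 in 1. A few match by name alone: Sec14l2 and Sec14l5 encode lipid-binding proteins, Rab10os and Rab26os are transcripts from the opposite strand, and Atp6v0c-ps2 is a pseudogene.

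Secreted and lysosomal proteins enter the endoplasmic reticulum through the Sec61 channel and leave it in COPII vesicles, whose coat is built of Sec23, Sec24, Sec13 and Sec31 proteins. Rab GTPases mark each membrane compartment, and tethers such as TRAPP and some of the Vps complexes hold vesicles to their target. SNAREs fuse the membranes, and AP adaptors select cargo for clathrin-coated vesicles. The V-ATPase, made of a catalytic V1 sector and a membrane V0 sector, pumps protons into endosomes, lysosomes and the insulin granule, where acidity is needed for the conversion of proinsulin. In β cells, Rab3 and Rab27 proteins and calcium-sensing synaptotagmins act at the release of insulin granules.

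The assay was ATAC-seq, in which the Tn5 transposase inserts adapters into open chromatin. All 15 mice were males of 3 months that carried floxed Arid1a alleles (Arid1aFl/Fl) and MIP-rtTA, and all received doxycycline at 1 g/L in the drinking water. MIP-rtTA places a doxycycline-dependent activator under an insulin promoter. The βKO mice carried TRE-Cre in addition, a Cre gene switched on by that activator. Arid1a encodes a subunit of the BAF chromatin remodelling complex. Islets were taken from 4 βKO mice and 4 control mice on day 6 after PPx, and from 3 βKO mice and 4 control mice before PPx. Doxycycline had been withdrawn by the time of PPx. Each library held 40000 islet cells. Islets also hold α, δ and other cells in which the deletion is not induced, and in bulk tissue a change in the share of β cells cannot be told apart from a change per β cell.

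All levels below are log2 concentrations, the authors' log2 mean of normalised reads in a peak of 601 bp over the libraries of a group, and all changes are differences of these levels, βKO minus control or after minus before. Levels, changes, p-values and FDR values are those of the authors' deposited tables, with signs turned to this direction. A peak with an FDR under 0.05 is called opened where the change is positive and closed where it is negative. Group means, not single libraries, are the values used, the depth of each library is unknown, and the spread between mice enters through the authors' p-values. The standard errors (SE) printed here are approximate and were derived from each deposited change and its p-value.

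After PPx most peaks read higher in βKO islets: the median change over all 13111 peaks was 0.61, and 90.3% of them were positive. The opened peaks are therefore also set against that median. Whether the general gain lies in the chromatin or in the scaling of the libraries was not tested. A peak in exon 9 of Arid1a (chr4:133692980-133693580) read 4.04 in βKO and 0.40 in control islets after PPx by the deposited values, and 5.49 in βKO and 1.21 in control islets before PPx. Which exons are floxed is not given in the sources used here, so this peak does not check the deletion. Of the marker genes of cell types, 7 of 12 β cell genes and 4 of 7 α, δ and PP cell genes had a listed peak after PPx. So did 0 of 6 acinar, 1 of 5 duct, 2 of 5 endothelial, 1 of 4 stromal and 2 of 5 leukocyte genes. After PPx 4 of 14 peaks at the β cell genes opened, at Foxa2, Ins1, Nkx6-1 and Rfx6. At the α, δ and PP cell genes 1 of 5 opened, at the δ cell gene Sst, against 9.88% of all peaks. None of the 2 duct, 5 endothelial, 2 stromal and 2 leukocyte peaks opened, and no acinar peak was listed. No difference between cell types is read from counts over so few peaks. In βKO islets after against before PPx, 2 of 26 marker peaks opened, against 7.44% of all peaks. They lay at the β cell gene Slc30a8 and the leukocyte gene Csf1r. Csf1r read 4.03 after and 2.02 before PPx, a change of 2.01 (FDR 0.0282, authors' deposited table), and the part of leukocytes in the changes over time was not tested.

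The promoter windows of Atp6v1a, Ap2s1 and Ap1s2 are shown because these are the pump and adaptor genes whose promoter peaks opened after PPx. They are the RefSeq windows of build GRCm38.p6 (mm10), 300 bases from 250 bases before to 50 bases after the annotated gene start, read 5′ to 3′ on the gene's strand. Capitals mark matches on either strand to motifs that were searched: CACGTG (the E box, core of the element bound by the lysosomal regulators TFEB and TFE3), its longer form TCACGTGA, TGACGTCA (the cAMP response element), CCGGAAG (the core bound by ETS factors) and CCAAT. The windows lie at chr16:44139210-44139509 on the minus strand for Atp6v1a, chr7:16738194-16738493 on the plus strand for Ap2s1, and chrX:163908767-163909066 on the plus strand for Ap1s2.
Atp6v1a promoter: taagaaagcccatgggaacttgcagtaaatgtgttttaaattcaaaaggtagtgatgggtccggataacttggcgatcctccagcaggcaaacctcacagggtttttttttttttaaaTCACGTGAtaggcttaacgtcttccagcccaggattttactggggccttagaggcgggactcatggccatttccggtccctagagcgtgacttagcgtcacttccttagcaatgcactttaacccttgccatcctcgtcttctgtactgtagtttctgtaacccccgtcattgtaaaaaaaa
Ap2s1 promoter: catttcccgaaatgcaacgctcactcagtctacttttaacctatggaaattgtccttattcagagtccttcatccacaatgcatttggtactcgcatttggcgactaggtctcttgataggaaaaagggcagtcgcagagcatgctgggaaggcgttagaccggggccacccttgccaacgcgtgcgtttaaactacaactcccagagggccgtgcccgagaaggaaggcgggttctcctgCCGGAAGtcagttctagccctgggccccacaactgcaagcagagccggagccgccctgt
Ap1s2 promoter: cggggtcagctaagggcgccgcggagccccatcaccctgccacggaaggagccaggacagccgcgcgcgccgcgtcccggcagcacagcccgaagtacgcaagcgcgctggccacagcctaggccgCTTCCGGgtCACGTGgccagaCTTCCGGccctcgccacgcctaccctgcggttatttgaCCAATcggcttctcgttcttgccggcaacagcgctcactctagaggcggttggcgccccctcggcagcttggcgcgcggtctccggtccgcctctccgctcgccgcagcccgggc

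The proton pump gene Atp6v1a, which encodes the catalytic A subunit of the V1 sector, had the smallest FDR of all trafficking and pump peaks after PPx. Its promoter peak (chr16:44138861-44139461) read 5.47 in βKO and 4.06 in control islets after PPx (authors' deposited table), a change of 1.40 (SE 0.36) or 2.64-fold at an FDR of 0.0212. That stands 0.79 above the median of all peaks, with an approximate adjusted p of 0.867 for the difference from it (normal test, Benjamini-Hochberg over all peaks). Before PPx the same promoter read 4.82 in βKO and 4.43 in control islets in the deposited table, a change of 0.39 at an FDR of 1. A second peak assigned to Atp6v1a, about 75877 bp from the gene start, had a change of 0.29 after PPx (FDR 0.545, authors' deposited table).

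Of the 13 V-ATPase peaks 1 opened after PPx, which is 7.69% against 9.88% of all peaks, and all 13 had positive changes, between 0.15 and 1.40 with a median of 0.74. Nearest to the threshold were the promoters of Atp6v1h and Atp6v0d1, which encode the H subunit of the V1 sector and the d subunit of the V0 sector. Atp6v1h read 5.32 in βKO and 4.47 in control islets after PPx, a change of 0.86 (SE 0.32; FDR 0.0503, authors' deposited table). Atp6v0d1 read 4.85 in βKO and 3.94 in control islets, a change of 0.91 (SE 0.35) at an FDR of 0.0522. Both values lie just outside the threshold, and the Atp6v1h promoter is the strongest pump peak by mean level. Atp6v1e1, a subunit of the stalk, read 4.29 in βKO and 3.25 in control islets after PPx, with a deposited change of 1.04 and an FDR of 0.0626. The promoters of Atp6v1g1 and Atp6v1c1, the G and C subunits, had changes of 0.78 and 0.74 with FDR values of 0.114 and 0.14 in the deposited table. Atp6v1f and Atp6v0c, the F subunit and the proton-carrying c subunit, had changes of 0.42 and 0.31. Peaks of the tissue-restricted subunit genes were at lower levels. Atp6v1c2 read 3.53 in βKO and 3.38 in control islets and Atp6v1e2 3.39 in βKO and 2.66 in control islets after PPx, both at an FDR of 1. The pseudogene peak Atp6v0c-ps2 had a change of 0.76, and a distal peak of Atp6v1c1 one of 0.20, both with an FDR of 1.

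For 6 pump promoters the changes can be followed through all 4 comparisons. Before PPx, Atp6v0d1, Atp6v1e1, Atp6v0c and Atp6v1g1 had negative changes of βKO against control (-0.62, -0.54, -0.47 and -0.20), and Atp6v1a and Atp6v1h had positive ones (0.39 and 0.60), each with FDR 1 in the authors' deposited table. In βKO islets after against before PPx all 6 were positive. Atp6v0d1 read 4.83 after and 3.37 before PPx in that comparison, a change of 1.46 (SE 0.43) at an FDR of 0.0329, and it was the opened pump peak there. Atp6v1e1 read 4.31 after and 2.88 before PPx in βKO islets, a change of 1.43 (FDR 0.051, authors' deposited table). In control islets after against before PPx the 6 changes lay between -0.18 and 0.40, at FDR values of 0.999. Of the pump genes outside these 6, Atp6v0a4 and Atp6v1g2 read nearly alike in both genotypes before PPx (3.15 in βKO and 3.16 in control islets for Atp6v0a4, 3.23 in βKO and 3.22 in control islets for Atp6v1g2). Atp6v0a2 was listed in the control comparison of times alone, at levels of -0.21 after and -0.30 before PPx in the deposited table.

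**Figure D1:**
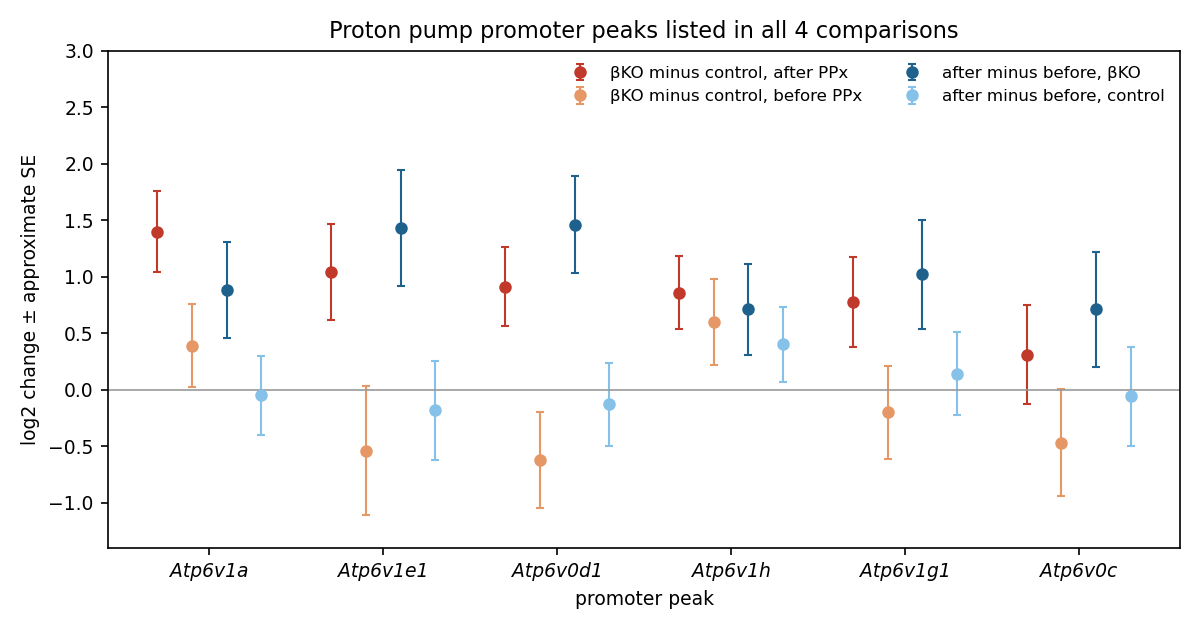
Log2 change at the 6 V-ATPase promoter peaks listed in all 4 comparisons, with bars of 1 approximate SE either way, for βKO minus control after and before PPx and for after minus before PPx in βKO and in control islets. Changes of βKO against control after PPx run between 0.31 and 1.40, those of after against before PPx in βKO islets between 0.71 and 1.46, and those in control islets between -0.18 and 0.40.

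Among the adaptor genes, Ap2s1 and Ap1s2, the small subunits of AP-2 at the plasma membrane and of AP-1 at the trans-Golgi and endosomes, opened after PPx. The Ap2s1 promoter (chr7:16738081-16738681) read 5.02 in βKO and 3.93 in control islets after PPx, a change of 1.09 (SE 0.33; FDR 0.0286, authors' deposited table). Before PPx it read 3.79 in βKO and 4.04 in control islets. Ap1s2 was the gene with more than 1 opened peak. Its promoter (chrX:163908699-163909299) read 5.30 in βKO and 4.35 in control islets after PPx, a change of 0.96 (SE 0.33; FDR 0.0395, authors' deposited table). Its distal peak (chrX:163857612-163858212), centred at -51105 bp relative to the gene start, read 5.22 in βKO and 4.04 in control islets, a change of 1.18 (SE 0.36) at an FDR of 0.0311. Of the 13 adaptor peaks 3 opened, which is 23.1% against 9.88% of all peaks, a count over few peaks. The 13 adaptor peaks had changes between 0.05 and 1.39 with a median of 0.78. The strongest of them, the promoter of the AP-2 large subunit gene Ap2a1, read 6.59 in βKO and 5.83 in control islets after PPx, a deposited change of 0.76 at an FDR of 0.0766. A distal peak of Ap2s1 had a change of 1.39 but read 3.23 in βKO and 1.85 in control islets, with an FDR of 1. The AP-1 subunit gene Ap1s3 read 4.04 in βKO and 3.98 in control islets, the smallest adaptor change after PPx.

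At the entry to the pathway, Sec61a1, which encodes the pore of the translocon, opened after PPx. It read 4.91 in βKO and 3.83 in control islets, a change of 1.09 (SE 0.36; FDR 0.0387, authors' deposited table). The peak was called in 4 of 4 βKO and 1 of 4 control libraries. The other translocon genes Sec61b and Sec61g both had changes of 0.74, at FDR values of 0.0612 and 0.0993, and the signal peptidase genes Sec11a and Sec11c had changes of 0.90 and 0.78 at their promoters, with no pass, in the deposited table. None of 6 COPII coat peaks, all at promoters, opened after PPx, against 14.3% of all promoter peaks. At an unadjusted p under 0.05 with a positive change stood 3 of the 6, beside 3636 of all 8050 promoter peaks. Nothing particular to the coat is read from these counts. The 6 changes lay between 0.45 and 0.88 in the deposited table. The coat peaks include the strongest Sec peak, that of Sec23a, at 6.37 in βKO and 5.73 in control islets. The lipid-binding gene Sec14l2, in the set by name, read 4.42 in βKO and 3.04 in control islets, a change of 1.39 (SE 0.41; FDR 0.0268, authors' deposited table). Of the 16 Sec peaks 2 opened, which is 12.5% against 9.88% of all peaks, and their median change was 0.74.

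Both the TRAPP tether and the Rab GTPases had opened promoters after PPx. Trappc9, a subunit of the TRAPP complex that acts at the Golgi, read 5.21 in βKO and 4.04 in control islets, a change of 1.17 (SE 0.32; FDR 0.025, authors' deposited table). Trappc8, a subunit of the complex that acts in early secretion and autophagy, read 5.62 in βKO and 4.58 in control islets, a change of 1.04 (SE 0.35) at an FDR of 0.0396. The peak of highest level among TRAPP genes, Trappc11, read 6.11 in βKO and 5.21 in control islets at an FDR of 0.0507. Of the 17 TRAPP peaks 2 opened, which is 11.8% against 9.88% of all peaks. At promoters 2 of 12 opened, which is 16.7% against 14.3% of all promoter peaks. The changes of the TRAPP peaks ran between -0.36 and 1.17 with a median of 0.69. Trappc9 had 3 further peaks, with changes of 0.69, 0.23 and 0.21 in the deposited table, none of which passed. The lowest TRAPP value was an intron peak of Trappc3l at 2.52 in βKO and 2.88 in control islets.

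Of 43 Rab peaks 5 opened after PPx, all of them promoters of GTPases. That is 5 of 34 Rab promoters, 14.7%, a share near the 14.3% of all promoter peaks. Rab1a, which directs transport between endoplasmic reticulum and Golgi, read 5.88 in βKO and 4.96 in control islets, a change of 0.92 (SE 0.33; FDR 0.0466, authors' deposited table). Rab2b, a Golgi Rab, read 6.69 in βKO and 5.70 in control islets, a change of 0.99 (SE 0.33) at an FDR of 0.0371. Its promoter peak also holds the start of Tox4 on the opposite strand, and the values cannot be divided between these genes. Rab14 and Rab21, which act at endosomes, changed by 0.93 (5.09 in βKO, 4.16 in control islets) and 1.07 (4.84 in βKO, 3.77 in control islets) at FDR values of 0.0376 and 0.0425 in the deposited table. Rab36 read 4.54 in βKO and 3.49 in control islets, a change of 1.06 at an FDR of 0.0462. The strongest Rab peak by mean level was the promoter of Rab5a, the early endosome Rab, at 6.63 in βKO and 5.95 in control islets with an FDR of 0.091. Larger changes stood at weak peaks that did not pass. A peak in intron 4 of Rab3b read 3.40 in βKO and 1.85 in control islets, a change of 1.55 (p 0.00796 and FDR 1, authors' deposited table), and the Rab12 promoter had a change of 1.41, also at an FDR of 1. Rab5c and a distant peak of Rab28 had the smallest Rab changes, at 0.03 and -0.16.

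None of the peaks at the Rab3 and Rab27 genes of granule release passed, against 9.88% of all peaks. Nothing particular to these genes is read from so few peaks. The Rab3b intron peak given above, with the largest Rab change, is among them. Rab3a, on secretory granules, read 4.96 in βKO and 4.49 in control islets after PPx, a change of 0.47 (FDR 0.273, authors' deposited table). Rab27a read 3.69 in βKO and 3.25 in control islets, a change of 0.44 at an FDR of 1. Rab3d had a change of 0.83 at an FDR of 0.11, and Rab27b one of 0.37 (FDR 0.394, authors' deposited table). These changes lie within the range of the Rab family, and whether they differ from those of the opened Rab peaks was not tested.

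The SNARE promoters, at genes whose products fuse vesicles with their target, held no opened peak after PPx, against 14.3% of all promoter peaks, and nothing particular to SNAREs is read from a count over so few peaks. The 11 SNARE peaks, all at promoters, had changes between 0.29 and 0.81 with a median of 0.60. Of them 2 had an unadjusted p under 0.05 in the authors' deposited table, both higher in βKO islets, beside 3636 of all 8050 promoter peaks. The strongest was Vamp1 at 5.89 in βKO and 5.08 in control islets, with an FDR of 0.0689. Of 16 synaptotagmin peaks 1 opened, which is 6.25% against 9.88% of all peaks. It lies in intron 5 of 11 of Syt1 (chr10:108661339-108661939) and had the largest change of all trafficking and pump peaks. Syt1 encodes a calcium sensor of vesicle release known from neurons. The peak read 4.14 in βKO and 2.51 in control islets after PPx, a change of 1.64 (SE 0.44; FDR 0.0227, authors' deposited table). It was called in 3 of 4 βKO and 0 of 4 control libraries, and lies far inside the gene. It stands 1.03 above the median of all peaks, with an approximate adjusted p of 0.788 for the difference from it. The Syt1 promoter, the strongest synaptotagmin peak, read 4.84 in βKO and 4.23 in control islets, and 4 further Syt1 peaks had changes between -0.05 and 0.77 in the deposited table and did not pass. Syt7, a calcium sensor of insulin granules, read 3.84 in βKO and 3.22 in control islets at an FDR of 0.22.

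Among the Vps genes, 3 of 13 promoters opened after PPx, against 14.3% of all promoter peaks. Vps26c, a subunit of the retriever complex of endosomal recycling, read 4.24 in βKO and 3.04 in control islets, a change of 1.20 (SE 0.40; FDR 0.0387, authors' deposited table). Vps36, a subunit of ESCRT-II, read 5.90 in βKO and 4.91 in control islets, a change of 0.99 (SE 0.35) at an FDR of 0.0425, and was the strongest Vps peak. Vps54, a subunit of the GARP tether, read 4.15 in βKO and 3.04 in control islets, a change of 1.10 (SE 0.41) at an FDR of 0.0491. Vps26a, the retromer subunit gene with a listed peak, had a change of 0.25, and the peaks of Vps8, Vps18 and Vps41 of the HOPS and CORVET tethers by 0.29 to 1.00 in the deposited table. None of 24 sorting nexin peaks opened after PPx, against 9.88% of all peaks. At an unadjusted p under 0.05 stood 8 of the 24, all higher in βKO islets, beside 4331 of all 13111 peaks, so that nothing particular to sorting nexins is read from these counts. Their changes ran between -0.63, at a weak intron peak of Snx29 (1.37 in βKO and 2.00 in control islets), and 1.07 at Snx1, with a median of 0.56 in the deposited table. The strongest sorting nexin peak, at the Snx7 promoter, read 5.78 in βKO and 5.28 in control islets.

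**Figure D2:**
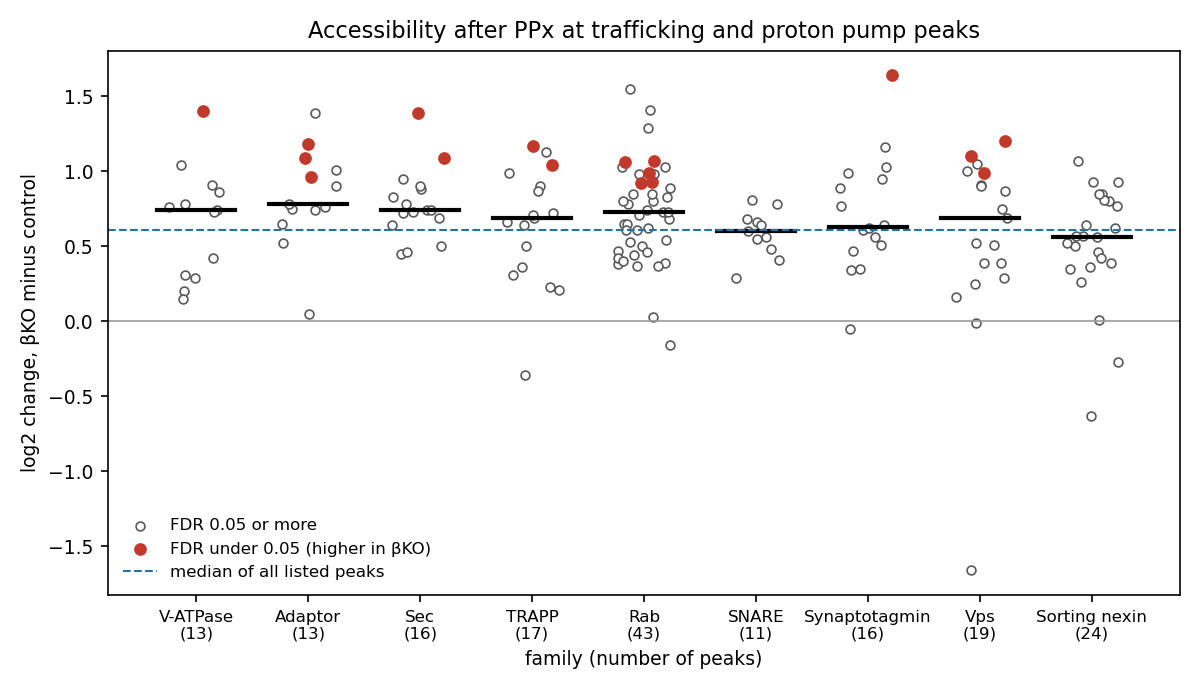
Log2 change of βKO minus control after PPx at each of the 172 peaks, by family, with the number of peaks in brackets. Filled points have an FDR under 0.05, black bars are family medians (0.56 to 0.78) and the dashed line is the median of all listed peaks, 0.61. The lowest point is the Vps45 intron peak at -1.66.

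As a set, the trafficking and pump peaks opened after PPx at the rate of all listed peaks. Of 172 peaks 17 opened, at 16 genes, against 9.88% of all peaks of that comparison. No member closed, against 0.0839% of all peaks. Peaks of the same promoter class and the same of 10 classes of mean concentration opened at 11.9%, which is 20.5 of 172 peaks. The median change was 0.70 at the members (quartiles 0.46 and 0.90), 0.61 over all peaks and 0.64 over the like peaks. Of the 172 changes 165 were positive. Without regard to the FDR, 74 member peaks had a p under 0.05 with a positive change and 1 with a negative change, beside 4331 and 69 of all 13111 peaks. At promoters the count with a positive change was 61 of 126 members and 3636 of all 8050 promoter peaks. Promoters make up 73.3% of the members and 61.4% of all peaks. At the 126 promoter peaks the median change was 0.72, against 0.71 at all promoters, and 15 opened, which is 11.9% against 14.3% of all promoters. At the other 46 it was 0.56, against 0.38 at all peaks outside promoters, and 2 opened, which is 4.35% against 2.81%. Relative to the median of all peaks, the approximate test called 0 members higher, against 0.0153% of all peaks, and 1 member lower, against 0.374%. At an unadjusted p under 0.05 that test had 2 members higher and 1 lower, and no count over all peaks was made at that limit. The 17 opened peaks stood between 0.31 (Rab1a) and 1.03 (the Syt1 intron) above the median, with approximate adjusted p-values of 0.788 to 0.996. The family medians lay between 0.56 for sorting nexins and 0.78 for adaptors, and no test of one family against another was made.

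The member called lower was a peak in intron 7 of 14 of Vps45 (chr3:96044411-96045011), which encodes a Sec1/Munc18 protein that binds endosomal SNAREs. It read 2.19 in βKO and 3.85 in control islets after PPx, a change of -1.66 (SE 0.51; p 0.00121 and FDR 1, authors' deposited table). Relative to the median of all peaks it stood at -2.27 with an approximate adjusted p of 0.00969, and 0.0448 when set against like peaks. The authors' FDR was 1 at 51 of the 172 member peaks, Vps45 among them. Adjusted by Benjamini-Hochberg over all listed peaks, its deposited p gives 0.0441. The peak was called in 4 of 4 βKO and 4 of 4 control libraries. Before PPx, in other mice, it read 2.24 in βKO and 3.61 in control islets, a change of -1.37 (SE 0.58; p 0.018 and FDR 1, authors' deposited table). Both βKO groups thus lay below both control groups in the genotype comparisons. Over time the same peak read 2.19 after and 2.30 before PPx in βKO islets, and 3.90 after and 3.43 before PPx in control islets.

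Before PPx no trafficking or pump peak passed in βKO against control islets, where 0.0128% of all peaks opened, the Arid1a peak, and 0% closed. The median change of the 107 member peaks was 0.03, against 0.00 over all peaks, and the smallest member FDR was 1. At an unadjusted p under 0.05, 1 member was higher and 2 were lower, beside 66 and 180 of all 7826 peaks. Nothing particular to the members is read from these counts. The late endosome gene Rab9 read 4.34 in βKO and 2.86 in control islets before PPx, a change of 1.48 (SE 0.52) with a p of 0.00464 in the authors' deposited table. The promoter of Snx17, an endosomal recycling gene, read 2.79 in βKO and 4.09 in control islets, a change of -1.30 (SE 0.51) with a p of 0.0101, and Vps45 is given above. Of the 17 peaks that opened after PPx, all but the Vps54 promoter were listed before PPx, with changes between -0.66 at Rab36 and 0.65 at the Syt1 intron peak. The next on the lower side was -1.18 at Snx11, and the next on the higher side were 0.71 at Vps37c and 0.68 at Sec31a, with p-values between 0.0564 and 0.119 in the deposited table. Family medians ran between -0.12 for V-ATPase and adaptor peaks and 0.19 for Rab peaks.

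The difference between the genotype changes after and before PPx was tested at 7503 peaks listed in both comparisons, 102 of them members. The median difference was 0.69 at members (quartiles 0.29 and 0.99) and 0.64 over all these peaks, and it was positive at 94 members. Relative to the median difference, 0 members were called by the approximate normal test with Benjamini-Hochberg adjustment, against 0% of all these peaks, and 1 had an unadjusted p under 0.05. Without that centring 22 of the 102 members had an unadjusted p under 0.05. The smallest adjusted p at a member was 0.31, and none was called, against 0 of all 7503 peaks. Counts over all 7503 peaks at the unadjusted limit were not made, with or without centring. As all these peaks share the median difference of 0.64, nothing particular to the members is read from the 22. The median SE of the difference at a member was 0.55, so that differences near the median are not resolved at a single peak. The largest departures were at Rab9 (0.71 after and 1.48 before PPx), Snx17 (0.52 after and -1.30 before PPx) and Rab36 (1.06 after and -0.66 before PPx).

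**Figure D3:**
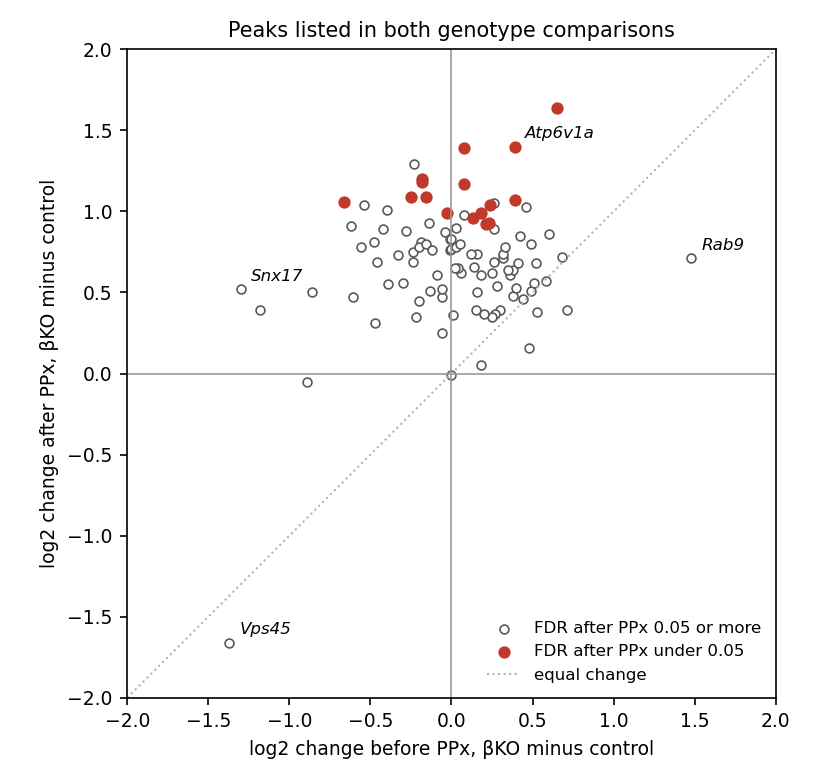
Log2 change of βKO minus control after PPx (vertical axis) and before PPx (horizontal axis) at the 102 member peaks listed in both comparisons, with filled points for an FDR under 0.05 after PPx. Most points lie above the dotted line of equal change and above 0 on the vertical axis, and Vps45 lies at -1.37 before and -1.66 after PPx.

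In βKO islets after against before PPx, 16 of 169 member peaks opened, against 7.44% of all peaks, and like peaks opened at 8.60%. No member closed, against 0% of all peaks, and 75 members had a p under 0.05 with a positive change and 0 with a negative one, beside 5027 and 3 of all 12767 peaks. This comparison shares the βKO libraries after PPx with the genotype comparison after PPx, so that neither is independent support for the other. The median change was 0.88 at members, 0.83 over all peaks and 0.87 over like peaks, and 164 changes were positive. AP-2 subunits were among the opened promoters. Ap2m1, the medium subunit, read 4.85 after and 3.21 before PPx, a change of 1.64 (SE 0.45; FDR 0.0282, authors' deposited table). Ap2s1 read 5.02 after and 3.59 before PPx, a change of 1.43 (SE 0.40), also at an FDR of 0.0282. The distal Ap1s2 peak changed by 1.17 at an FDR of 0.049.

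The smallest FDR in this comparison, 0.0231 in the authors' deposited table, belonged to Rab33b and Snx17. Rab33b, a Golgi Rab linked to autophagy, read 5.76 after and 4.34 before PPx in βKO islets, a change of 1.42 (SE 0.37). Snx17 read 4.29 after and 2.31 before PPx, a change of 1.98 (SE 0.51). Its promoter peak in the genotype comparison after PPx also held the start of Eif2b4, and values there cannot be divided between these genes. The largest change was that of Trappc10, at 4.06 after and 2.00 before PPx, 2.07 (SE 0.60) at an FDR of 0.0313. Vps18, shared by the HOPS and CORVET tethers, read 4.30 after and 2.64 before PPx, a change of 1.66 at an FDR of 0.0304. The COPII coat genes Sec23b and Sec24b changed by 1.38 and 1.53 at FDR values of 0.0375 and 0.0394, and the translocon gene Sec61a1 by 1.27 at 0.0486, in the deposited table. Rab2b, Rab36 and the Rab effector gene Rab11fip1 changed by 1.12, 1.53 and 1.24 (FDR 0.0421, 0.0388 and 0.0443), and Snx30 by 1.59 (FDR 0.0451). Vamp1 was the opened SNARE peak, at 5.88 after and 4.72 before PPx (FDR 0.0483, authors' deposited table). Negative values stood at weak peaks or small sizes. The Rab1b peak read 2.03 after and 2.96 before PPx, a Snx4 peak 2.59 after and 2.78 before, and a distal Sec11c peak 4.31 after and 4.47 before, none of which passed.

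In control islets after against before PPx none of 104 member peaks passed, where 0% of all peaks opened and 0% closed, and the smallest member FDR was 0.999. The median change was 0.19 at members and 0.16 over all peaks. Of the 16 peaks opened over time in βKO islets, all but Vps18 and Trappc10 were listed in control islets, with changes between -0.15 at Rab36 and 0.69 at Sec24b in the authors' deposited table. The interaction test above took in 13 of the 16, without Sec24b, Vps18 and Trappc10, and called none. At an unadjusted p under 0.05 stood 1 member, which was higher after PPx, beside 196 higher and 8 lower of all 8070 peaks. It was the promoter of Vps4b, an ATPase of the ESCRT pathway, at 4.89 after and 4.29 before PPx with a p of 0.0418 in the authors' deposited table. The extremes were a Vps50 peak at 3.09 after and 2.24 before PPx, the promoter of Rab3gap1, a Rab3 regulator, at 4.13 after and 3.37 before, and, on the lower side, Ap3d1 at 2.86 after and 3.51 before. Vps26c and Rab3d had changes of -0.54 and -0.41 in control islets. Family medians ran between -0.05 for V-ATPase peaks and 0.30 for sorting nexins in the deposited tables.

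**Figure D4:**
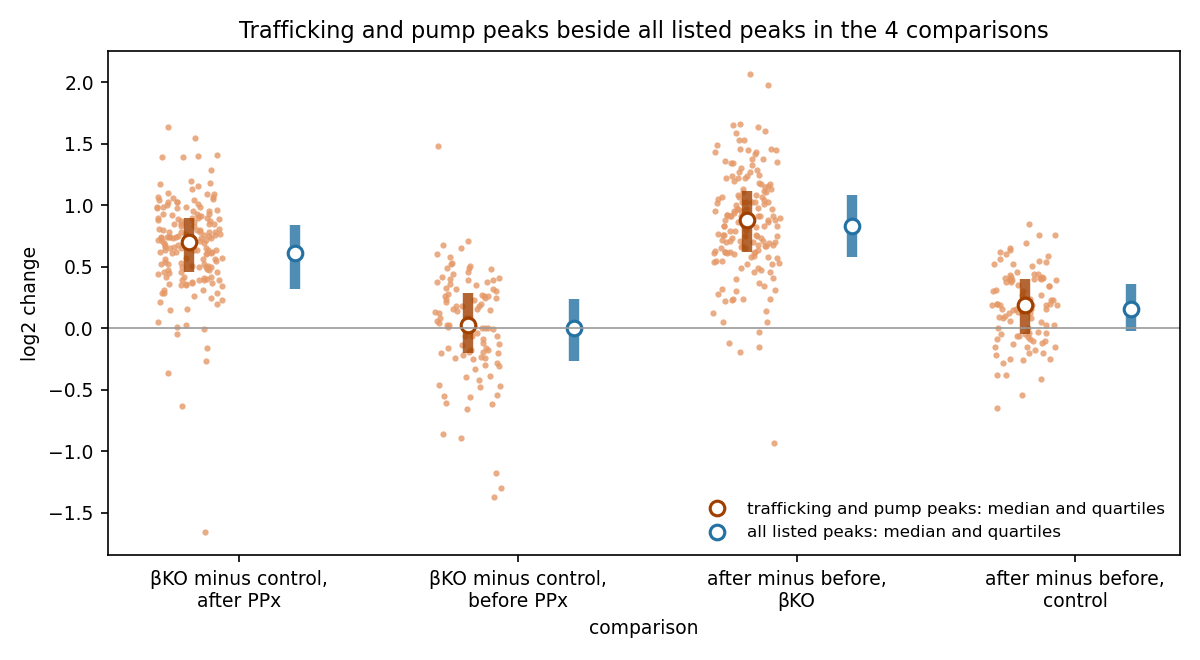
Log2 change at every trafficking and pump peak (points) with their median and quartiles, beside the median and quartiles of all listed peaks, in the 4 comparisons. The medians of members and of all peaks are 0.70 and 0.61 for βKO against control after PPx, 0.03 and 0.00 before PPx, 0.88 and 0.83 for after against before PPx in βKO islets, and 0.19 and 0.16 in control islets.

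A peak enters a table when it was called in at least 2 libraries of the compared groups. After PPx, 163 of the 172 member peaks were called in at least 2 βKO libraries and 73 in at least 2 control libraries, and the shares over all peaks were 91.9% and 44.0%. Of the 172 members, 56 were called in βKO libraries alone and 0 in control libraries alone, beside 3724 and 84 of all 13111 peaks. Entry to the list of peaks thus leans towards βKO islets, for members and for all peaks. The 102 members also listed in the genotype comparison before PPx had a median change of 0.71 after PPx and 16 opened peaks, which is 15.7% beside 15.6% of all such peaks. The other 70 had a median change of 0.64 and 1 opened peak, which is 1.43% beside 2.21% of all such peaks.

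The promoter peaks lie at the starts of their genes. Of 126 promoter members after PPx, 98 are in the RefSeq table, and the centres of these 98 lie a median of 89.5 bp from the nearest annotated start of their own gene. Of the 98, 90 hold that start. Of these 90, 10 also hold the start of another gene. Among them are Snx17 with Eif2b4 and Trappc11 with Rwdd4a on the opposite strand, and Rab2b with Tox4 is the one opened in βKO against control islets after PPx. In βKO islets after against before PPx, 10 promoter members held their own and another start, and 3 of these opened. Of all promoter peaks with the starts of more than 1 gene, 125 of 894 opened in that comparison. In βKO against control islets after PPx, 156 of 886 such peaks opened. Nothing particular to the members is read from so few peaks. Peaks of the other classes lie a median of 75877 bp from the start of the gene named by the annotation, and a peak assigned to Rab28 lies 663489 bp away, so that for these the name is one of proximity.

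The 8-base E box TCACGTGA was found in 7 of the 90 member promoter windows, 7.78%, against 2.06% of the 4757 RefSeq windows whose start lies in any promoter peak of that comparison and 1.01% of all 27025 windows. The shorter CACGTG, which the longer motif contains, was found in 12 member windows, 13.3%, against 10.3% and 7.24%. Of the other motifs, CCGGAAG was found in 21.1% against 19.7% of the windows in promoter peaks, CCAAT in 41.1% against 45.3%, and TGACGTCA in 1.11% against 3.91%. The NRF1 motif was found in 1 member window and the endoplasmic reticulum stress response element in 0. The 7 stretches with TCACGTGA in capitals and 20 bases on either side, from GRCm38.p6 and read on the gene's strand, show the motif in its setting at each gene.
Atp6v1a: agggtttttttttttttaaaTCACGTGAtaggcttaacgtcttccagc
Atp6v0d1: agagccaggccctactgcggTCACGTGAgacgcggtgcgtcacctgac
Rab21: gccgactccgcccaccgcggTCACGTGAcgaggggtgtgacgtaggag
Rab5a: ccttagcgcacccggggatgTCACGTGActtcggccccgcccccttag
Stx6: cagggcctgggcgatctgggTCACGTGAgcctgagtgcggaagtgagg
Sec23ip: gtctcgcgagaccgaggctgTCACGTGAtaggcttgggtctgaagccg
Vps26a: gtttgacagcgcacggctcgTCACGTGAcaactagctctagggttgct

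The motif lies between 183 bases before the gene start, at Vps26a, and the start itself, which it spans at Atp6v0d1, and lies inside the peak at all 7 promoters. In Atp6v1a it begins 132 bases before the start (chr16:44139384-44139391, minus strand). The changes of these promoter peaks after PPx were 1.40 at Atp6v1a, 1.07 at Rab21, 0.91 at Atp6v0d1, 0.68 at Rab5a and Stx6, 0.50 at Sec23ip and 0.25 at Vps26a in the authors' deposited table, and those of Atp6v1a and Rab21 opened. Of the 4757 windows whose start lies in any promoter peak, 752 lay in opened peaks. TCACGTGA was found in 19 of these 752 windows, 2.53%, against 98 of all 4757, 2.06%. No link between motif and opening is read from 7 promoters. The motif match is a description of sequence, and no binding was measured.

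Other genes of the same pathways, from a list of 138 that the name rule does not take are given beside these. After PPx 75 of them had a listed peak, and the median change over their 113 peaks was 0.67. Of these 113 peaks 13 opened, at 13 genes, and 0 closed, against 9.88% and 0.0839% of all peaks. Of 25 peaks at partners of the proton pump and lysosomal genes 4 opened, a count over few peaks. Atp6ap2, an accessory protein of the V-ATPase, read 5.10 in βKO and 3.80 in control islets after PPx, a change of 1.30 (SE 0.38; FDR 0.0268, authors' deposited table). Rogdi and Dmxl1, whose products belong to an assembly complex of the pump, changed by 1.10 and 1.00 at FDR values of 0.0317 and 0.0371. Of 15 peaks at tether genes 3 opened, at Uso1, Eea1 and Exoc5, with deposited changes of 1.05, 0.98 and 0.91. Rabac1, a Rab acceptor gene, changed by 1.16 in the deposited table. The others were Ap4s1, Bet1l, Picalm, Rabgap1, Unc13b and an intron of Oxr1. In βKO islets after against before PPx, 9 of 109 peaks at the listed genes opened, at 8 genes, against 7.44% of all peaks. At the tether genes of the list 4 of 15 peaks opened, all at exocyst subunit genes. Nothing particular to the exocyst is read from so few peaks. Exoc4 opened at its promoter and in intron 10, with changes of 1.39 and 1.23, Exoc3 changed by 1.51 and Exoc1 by 1.19 in the authors' deposited table. None of these genes passed before PPx or in control islets. At an unadjusted p under 0.05 stood 1 of 76 peaks before PPx and 1 of 79 in control islets. The counts over all peaks at that limit are given above.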

How the data were processed

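ATAC-seq libraries from islets of 15 mice in 4 groups were compared by the authors in 4 tables. Per the submitters' processing notes, the tools were cutadapt, DiffBind, ChIPseeker, MACS and BWA, and the build was mm10 (GRCm38). Tool versions, library scaling and read shifting for Tn5 are not given in the sources used. Per the file headers, each deposited table gives log2 concentrations per group, their log2 difference, a p-value, an FDR and the count of libraries in which a peak was called.

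Repeated rows were counted as 1 peak. The sign of the deposited difference, which has control or before on top, was reversed. The SE was the absolute change over the normal quantile of its p-value. Where that p was 0.5 or more, or the change under 0.1, the median SE of peaks of like concentration in 20 bins was used. Approximate normal tests with Benjamini-Hochberg adjustment over all peaks asked for departures from the table median and for the interaction of genotype and PPx, with peaks matched by at least 1 shared bp. They were tested on simulated data. From these tests 1 peak of the genotype comparison after PPx and 2 of the control comparison of times were left out, because a p of 0.5 or more stood beside a change of over 2 SE. Like peaks share the promoter class and the class of mean concentration, of 10 classes.

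Named peaks are those past an FDR of 0.05, the strongest peak of each family, all Atp6v genes and the 3 lowest and 3 highest changes of each comparison. The rule for the members reads symbols alone, but the rule, the lists and the tests were chosen with earlier results of these data known. Per the labels, the number of mice equals that of libraries, and all libraries ran on a shared flow cell. Batches of islet isolation are not given. The analysis used Python 3.11.15, pandas 2.3.3, numpy 2.4.6 and scipy 1.17.1. The alternatives were other FDR limits, an adjustment over all listed peaks, promoter peaks alone, 1 peak per gene, higher concentrations, stricter name or overlap rules and other centring.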

Additional observations from a re-analysis of the deposited data

How the results depend on the processing

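The counts of opened peaks depend on the FDR limit. For βKO against control after PPx, 0 members passed an FDR of 0.01, 17 one of 0.05 and 56 one of 0.1, and 7 passed under a Benjamini-Hochberg adjustment of the deposited p-values over all listed peaks. Of these 7, 6 are among the 17 opened peaks (Atp6v1a, the Syt1 intron, Trappc9, Sec14l2, Ap2s1 and the distal Ap1s2 peak) and the other is the Vps45 peak, lower in βKO islets (0.0441). For after against before PPx in βKO islets these counts were 0, 16, 62 and 10. Over all peaks, 1296 of 13111 after PPx and 950 of 12767 over time in βKO islets opened at an FDR of 0.05. At an FDR of 0.1, 3358 and 3941 of them were higher. Counts over all peaks at 0.01 and under the Benjamini-Hochberg adjustment are not given here. Nothing particular to the members is read from these counts. The cause of the lower counts under the Benjamini-Hochberg adjustment was not tested. The median changes and the counts of 0 before PPx and in control islets kept their direction and side under all alternatives run, and so did the test relative to the median when centred on like peaks and the interaction with a longer shared stretch or no centring. With promoter peaks alone 15 members opened in each of the comparisons with calls. Of all promoter peaks, 1154 of 8050 opened in βKO against control islets after PPx and 781 of 8033 over time in βKO islets. No library could be left out, because values per library were not analysed here. No paired analysis was possible because the deposited columns hold group means with no sample numbers, and the labels share no number between groups.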
